A study of Mus musculus with 20 samples.

Results

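Wnt signaling in mouse mammary tumors and organoids was examined through 50 genes, listed by name for their part in the pathway and looked up by symbol among the 45318 gene IDs of the count tables. The list holds 14 Wnt ligands, 10 Frizzled receptors, 5 co-receptors or alternative receptors, 6 R-spondins and R-spondin receptors, 7 transcription factors and feedback targets, 7 secreted inhibitors and the surface protein Procr. All 50 were present. Of these, 47 had enough counts to be tested, and Wnt3, Wnt3a and Rspo2 did not.

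Wnt proteins are secreted lipid-modified ligands that bind Frizzled receptors together with Lrp5 or Lrp6, which stabilizes beta-catenin and lets the factors Tcf7 and Lef1 raise targets such as Axin2. R-spondins, held by the Lgr receptors, keep Frizzled on the surface by removing the ubiquitin ligases Znrf3 and Rnf43, while Wif1, the Sfrp proteins and Dkk proteins act outside the cell, most of them as inhibitors. In the mammary gland the pathway is known for its role in branching and in basal stem cells, and Wnt5a with Ror1, Ror2 and Ryk is known for signaling that does not need beta-catenin.

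The data are 20 polyadenylated RNA libraries from mice of the FVB strain. Wild type (WT) mammary organoids cultured for 6 days (n = 3) served as the normal tissue. MMTV-PyMT tumors gave 30 µm frozen sections (n = 3), organoids taken at day 0 (n = 3), organoids at day 6 (n = 3) and organoids labelled with 6 days of culture whose titles give no day, called undated here (n = 2). Organoids of MMTV-Neu-NDL tumors were cultured for 6 days (n = 3), and MMTV-Cre;Flox-Neo-Neu-NT tumors gave sections (n = 3). The MMTV promoter acts mainly in mammary epithelium, and in the Neu-NT model it drives the Cre that switches the Neu allele on. Per the labels' protocol, PyMT organoids grew in matrigel with the growth factor FGF2. Normal tissue as sections or at day 0 is not analysed here. Each comparison of sections with WT organoids therefore also compares uncultured tissue with cultured organoids, which cannot be told apart. The labels name no animals, so p-values measure the spread between these libraries, which may be technical.

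Gene counts per library ran from 17478357 to 48341438. Erbb2, the mouse Neu gene, reached 4459 to 8515 counts scaled to library size (CPM) in Neu-NDL organoids and 195 to 1077 in Neu-NT sections, against 68.5 to 146 in all other libraries. The summed level of 12 luminal markers lay between 4209 and 10256 CPM in every library. The sum of 10 basal or myoepithelial markers was 2723 to 3499.9 CPM in WT organoids, 92.4 to 331 in PyMT sections, 215 to 474 at day 0, 109 to 7449.9 at day 6, 1620.2 to 2634 in undated organoids, 129 to 592 in Neu-NDL organoids and 106 to 2887 in Neu-NT sections. Day 6 replicate 3 stood apart from the other 6 day PyMT libraries with a fibroblast marker sum (10 genes) of 2797 CPM, where those 4 had 63.5 to 175. Its endothelial marker sum was 197 CPM against 6.45 to 8.39, and its myeloid sum 464 against 97.2 to 270. The adipocyte sum was 62.1 against 0.488 to 1.95 and the lymphocyte sum 1.98 against 0.0368 to 0.235. Its basal marker sum was the lowest of these libraries, at 109 CPM against 1258 to 7449.9, and its luminal sum the highest, at 9693 CPM against 4794 to 6803. Neu-NT replicate 3 stood apart from its group with a basal marker sum of 2887 CPM against 148 and 106. Of that sum Krt14 gave 1453 CPM and Krt17 1045, while Krt5 was at 26.4. The mean log2 CPM of the 10 markers was 5.59 there, against 7.33 to 7.60 in WT organoids. In day 6 replicate 2, the library with the highest sum, Krt14 gave 4423 CPM and the mean log2 CPM was 4.95. Neu-NT replicate 3 also differed from replicates 1 and 2 in other sums. Its lymphocyte sum was 22.4 CPM against 2.08 and 3.33, and its myeloid sum 1304 against 614 and 543. The fibroblast sum was 2780 against 1305 and 299 and the luminal sum 10256 against 4706 and 5188, while its adipocyte sum lay between theirs. Its Erbb2 level was the lowest of its group, at 195 CPM. In bulk RNA, fewer cells of a type and less RNA per cell cannot be told apart.

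Across 8 comparisons, 22 of the 47 tested members were called at least once by the quasi-likelihood test of edgeR (adjusted p under 0.05 over all 18698 genes tested), and 25 were never called. The 4 comparisons with WT organoids share the same 3 control libraries. Against those, 3 of 47 members were called in 6 day PyMT organoids (day 6 and undated averaged with equal weight), where 3.89% of all genes tested were called. In Neu-NDL organoids 5 of 47 were called against a background of 4.52%. Sections gave 9 of 47 in PyMT tumors (background 12.5%) and 7 of 47 in Neu-NT tumors (background 19%). The members' median log2 fold change against WT was -0.153, -0.500, -0.211 and 0.083 in this order, beside 0.007, 0.017, 0.033 and 0.034 over all genes.

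Between tumor groups, 3 of 47 members were called in 6 day PyMT organoids against day 0 (background 8.22%; median -0.149, all genes -0.021). Neu-NDL against 6 day PyMT organoids gave 5 of 47 (background 7.12%; median -0.511, all genes 0.015). Neu-NT against PyMT sections also gave 5 of 47 (background 9.7%; median 0.057, all genes 0.011). Day 0 PyMT organoids against PyMT sections gave 0 of 47 with edgeR (background 0.444%; median 0.093, all genes -0.016), with 1 member at an unadjusted p under 0.05 and 0 called by DESeq2.

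Without the pair of libraries that stood apart, the members called against WT organoids numbered 12 in 6 day PyMT organoids (background 16.5%), 12 in Neu-NDL organoids (14.5%), 14 in PyMT sections (27%) and 11 in Neu-NT sections (29%). Among tumor groups they numbered 19 for 6 day against day 0 PyMT organoids (30.7%), 0 for day 0 against PyMT sections (1.31%), 13 for Neu-NDL against 6 day PyMT organoids (24.3%) and 12 for Neu-NT against PyMT sections (23.2%). The background rose in each of these fits. Neu-NDL replicate 1, with a fibroblast marker sum of 2932 CPM against 159 and 198 in its group, was kept in them. Leaving out day 6 replicate 3 alone gave, with the share of all genes called in parentheses, 9 (10.8%) members in 6 day PyMT organoids, 9 (9.05%) in Neu-NDL organoids, 12 (21.1%) in PyMT sections and 11 (25%) in Neu-NT sections against WT. For the tumor comparisons it gave 12 (24.2%) for 6 day against day 0 PyMT organoids, 0 (0.905%) for day 0 against sections, 12 (16.6%) for Neu-NDL against 6 day PyMT organoids and 9 (14.8%) for Neu-NT against PyMT sections.

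**Figure D1:**
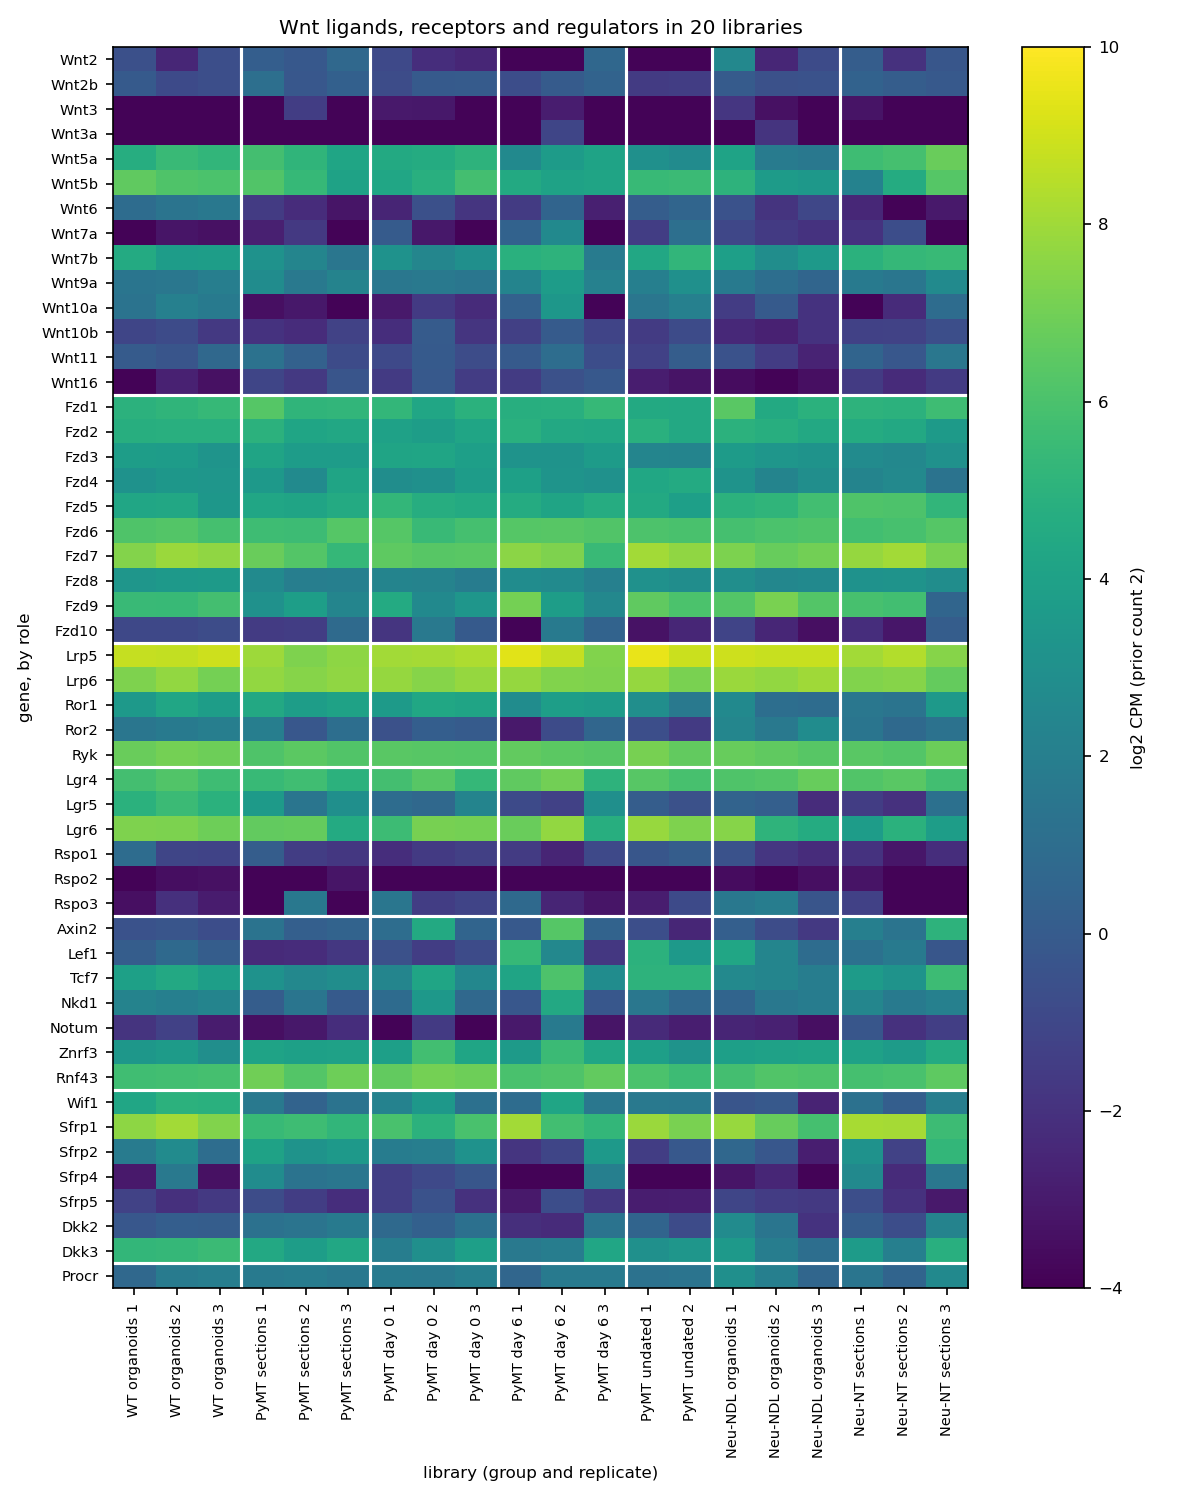
Levels of all 50 members (rows, by role) in the 20 libraries (columns, by group), as log2 CPM with a prior count of 2 in color. Lrp5, Fzd7 and Ryk form bright rows, Wnt3, Wnt3a and Rspo2 stay near the bottom of the scale, and Lgr5 and Wif1 are brightest in the 3 WT columns.

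The ligands were led by Wnt5b in WT organoids. Per kilobase of exon, Wnt5b stood at 28.9 ± 5.77 CPM (SD, n = 3), Wnt5a at 4.59 ± 1.16, Wnt7b at 3.47 ± 1.19, Wnt10a at 1.35 ± 0.347, Wnt6 at 1.13 ± 0.253 and Wnt9a at 0.946 ± 0.209. Wnt5a and Wnt7b did not differ beyond their spread, nor did Wnt10a, Wnt6 and Wnt9a among themselves. The other 8 ligands (Wnt2, Wnt2b, Wnt3, Wnt3a, Wnt7a, Wnt10b, Wnt11 and Wnt16) were each at or under 0.264 CPM per kilobase there.

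Wnt6, a ligand made by mammary epithelium, was lower in every tumor library than in any WT library. WT organoids had 1.88, 2.58 and 2.98 CPM, PyMT sections 0.267, 0.151 and 0.0396 and Neu-NT sections 0.113, 0 and 0.0518. Day 0 organoids had 0.104, 0.607 and 0.213 CPM, day 6 0.271, 1.33 and 0.0776, undated 1.01 and 1.44 and Neu-NDL 0.666, 0.197 and 0.433. Neu-NT sections were the lowest group, and the undated organoids and day 6 replicate 2 came nearest to WT. Wnt6 fell in Neu-NT sections (log2 fold change -5.33 ± 1.07 SE, adjusted p = 0.00398), where 4 counts against 291 in WT give a ratio of 41.9 (exact 95% interval for counting error 16.2 to 154.7). That call held under all alternatives and omissions tried. It also fell in PyMT sections (log2 fold change -3.94 ± 0.95 SE, adjusted p = 0.0185). The Wnt6 call ended when WT replicate 3 or PyMT section replicate 1 or 3 was left out (adjusted p = 0.0509 to 0.0695). In 6 day PyMT and Neu-NDL organoids its adjusted p was 0.23 and 0.102. Wnt6 (ENSMUSG00000033227.7, chr1:74771892-74785322, mm10) lies beside Wnt10a (ENSMUSG00000026167.11, chr1:74791516-74804179) on the same strand.

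Wnt10a, a ligand that signals through beta-catenin in skin and mammary tissue, was nearly absent from PyMT sections. Levels were 2.45, 4.16 and 3.35 CPM in WT organoids and 0.0267, 0.0502 and 0 in PyMT sections. Day 0 organoids had 0.052, 0.253 and 0.142, day 6 1.19, 10.4 and 0, undated 2.78 and 4.16, Neu-NDL 0.283, 0.9 and 0.192 and Neu-NT sections 0, 0.135 and 1.86. Day 6 replicate 2 was the highest of the 20 libraries and day 6 replicate 3 held 0 counts, so the day 6 group spanned the whole range. Wnt10a fell in PyMT sections (log2 fold change -6.86 ± 1.93 SE, adjusted p = 0.0325), where 2 counts against 399 give a ratio of 139.5 (95% interval for counting error 38.4 to 1156). Leaving out any WT replicate or any PyMT section replicate took Wnt10a over the threshold (adjusted p = 0.061 to 0.109) and the same held for no filter on low counts (adjusted p = 0.0571).

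Wnt5a, the best known ligand of the beta-catenin independent branch, fell in both kinds of tumor organoid after culture. WT organoids had 26.3, 44.4 and 37.1 CPM, day 6 PyMT organoids 6.29, 12.8 and 17.5, undated 8.08 and 6.59 and Neu-NDL 17.1, 3.43 and 3.03. Neither tumor organoid group overlapped WT, and Neu-NDL replicate 1, which has a fibroblast marker sum of 2932 CPM against 159 and 198 in its group, was the highest of its 3. The endothelial marker sum of that library was 66.7 CPM against 13.6 and 8.23, and its skeletal muscle sum 144 against 20.6 and 1.8. Sections and day 0 organoids had Wnt5a at 56.7, 36.2 and 18.7 (PyMT sections), 50.6, 58.9 and 109.9 (Neu-NT) and 22.2, 24.6 and 33.5 (day 0). Of these 9 libraries 4 were above the WT range, 2 within it and 3 below it. The fall passed in 6 day PyMT organoids (log2 fold change -1.92 ± 0.51 SE, adjusted p = 0.048) and in Neu-NDL organoids (log2 fold change -2.19 ± 0.60 SE, adjusted p = 0.0479). Both calls lay just under the threshold. The Wnt5a call ended when any WT replicate, PyMT section replicate 1 or 2, any day 0 replicate, day 6 replicate 1 or 2, either undated replicate or Neu-NT replicate 1 or 2 was left out (adjusted p = 0.0506 to 0.166), and the call also ended with no filter on low counts, a replicate block, the day 6 libraries alone and the undated libraries alone (adjusted p = 0.0588 to 0.14). In Neu-NDL organoids, leaving out any WT replicate, PyMT section replicate 1 or 2, any day 0 replicate, either undated replicate, Neu-NDL replicate 2 or 3 or Neu-NT replicate 1 or 2 took Wnt5a over the threshold (adjusted p = 0.0502 to 0.173) and the same held for no filter on low counts, a replicate block and only the libraries compared (adjusted p = 0.0584 to 0.0937).

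Wnt7b, an epithelial ligand, separated the sections of the tumor models. Neu-NT sections had 30.4, 39.4 and 43 CPM and PyMT sections 8.76, 5.18 and 2.73, with no overlap. Wnt7b was higher in Neu-NT (log2 fold change 2.75 ± 0.62 SE, adjusted p = 0.0138). The Wnt7b call ended when PyMT section replicate 3 was left out (adjusted p = 0.059). WT organoids lay between these groups with 23.7, 13.4 and 13.8, and day 0 PyMT organoids, with 8.63, 5.31 and 7.7, were close to the sections. After culture, day 6 organoids had 29.2, 32.6 and 3.49 and undated organoids 20.6 and 37.4, where replicate 3 of day 6 was the only low library.

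Wnt9a was lower in Neu-NDL organoids, at 3.25, 2 and 1.42 CPM, than in 6 day PyMT organoids, at 4.88, 13.4 and 4.31 (day 6) and 4.02 and 7.99 (undated). Day 6 replicate 2 was the highest (log2 fold change -1.60 ± 0.46 SE, adjusted p = 0.0483). For Wnt9a the test no longer passed without any WT replicate, any PyMT section replicate, any day 0 replicate, day 6 replicate 2, either undated replicate, Neu-NDL replicate 2 or 3 or Neu-NT replicate 1 or 2 (adjusted p = 0.0505 to 0.189) and did not pass with no filter on low counts, a replicate block, only the libraries compared, the day 6 libraries alone and the undated libraries alone (adjusted p = 0.0716 to 0.206). Wnt16, a ligand often found outside the epithelium, was higher in PyMT sections, with 0.4, 0.251 and 0.752 CPM, than in WT organoids, with 0, 0.0854 and 0.0307 (log2 fold change 3.40 ± 0.82 SE, adjusted p = 0.0189). The 5 counts in WT against 39 give a ratio of 11.2 (95% interval for counting error 4.39 to 36.2). Leaving out WT replicate 1 or 3 or PyMT section replicate 3 took Wnt16 over the threshold (adjusted p = 0.06 to 0.0777).

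Wnt5b was never called, although Neu-NDL organoids had 33, 12.7 and 10.9 CPM against 94.4, 69.6 and 66.4 in WT (log2 fold change -2.03 ± 0.74 SE, adjusted p = 0.125). Wnt7a was above 1 CPM only in day 6 replicates 1 and 2 and undated replicate 2, with 1.25, 6.22 and 2.06 CPM. Wnt3a had counts in 2 of 20 libraries, day 6 replicate 2 (0.41 CPM) and Neu-NDL replicate 2 (0.197 CPM).

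The Frizzled receptors were led by Fzd7, a receptor known from mammary stem cells, at 44.5 ± 7.47 CPM per kilobase in WT organoids. Fzd9 followed at 21.1 ± 3.1, then Fzd6 at 14.4 ± 2, Fzd1 at 8.7 ± 1.12 and Fzd2 at 7.6 ± 0.166. The spreads of Fzd1 and Fzd2 met within 1 SD of each. Fzd5 (2.46 ± 0.784), Fzd8 (1.94 ± 0.204), Fzd4 (1.47 ± 0.165) and Fzd3 (0.944 ± 0.189) came lower and Fzd10 last.

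Fzd5 was higher in the tumors driven by Neu. Neu-NT sections had 71.9, 67.1 and 36.8 CPM and Neu-NDL organoids 31.3, 35.7 and 53.9, against 19.5, 20.7 and 10.8 in WT organoids. PyMT sections had 19.5, 18 and 23.2, day 6 organoids 24.5, 17.9 and 25.3, undated 22.3 and 15.1 and day 0 organoids 38.7, 25.9 and 23.7. Every Neu library was above every WT library and above every PyMT library except day 0 replicate 1, which exceeded 3 of them. Fzd5 rose against WT in Neu-NT sections (log2 fold change 1.78 ± 0.32 SE, adjusted p = 0.00192), a call that held under all alternatives and omissions tried, and in Neu-NDL organoids (log2 fold change 1.24 ± 0.31 SE, adjusted p = 0.0342). Leaving out any WT replicate or Neu-NDL replicate 2 or 3 took Fzd5 over the threshold (adjusted p = 0.0705 to 0.147). Against the PyMT samples of the same kind it was higher in Neu-NT sections (log2 fold change 1.53 ± 0.31 SE, adjusted p = 0.00876) and in Neu-NDL organoids (log2 fold change 0.97 ± 0.27 SE, adjusted p = 0.0435). The Fzd5 call ended with only the libraries compared (adjusted p = 0.0546). In the organoids the margin was small. For Fzd5 the test no longer passed without WT replicate 1 or 2, PyMT section replicate 1 or 2, day 0 replicate 2 or 3, day 6 replicate 1 or 2, either undated replicate, Neu-NDL replicate 2 or 3 or Neu-NT replicate 2 (adjusted p = 0.05 to 0.219) and did not pass with no filter on low counts, only the libraries compared, the day 6 libraries alone and the undated libraries alone (adjusted p = 0.0543 to 0.163). Fzd5 (ENSMUSG00000045005.9, chr1:64730558-64737751, mm10) shares exon sequence with Gm38058 on the other strand.

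Fzd7 was lower in PyMT tissue that had not been cultured. PyMT sections had 112, 75.4 and 40.0 CPM and day 0 organoids 93.5, 83.5 and 83.9, against 166, 234 and 204 in WT organoids and 224, 263 and 145 in Neu-NT sections. Day 6 organoids had 189, 155 and 45.5 and undated organoids 271 and 206, and again day 6 replicate 3 was the low library among those 5. Fzd7 fell in PyMT sections against WT (log2 fold change -1.41 ± 0.42 SE, adjusted p = 0.0394). The Fzd7 call ended when any WT replicate, any PyMT section replicate, any day 0 replicate, undated replicate 1 or Neu-NT replicate 1 was left out (adjusted p = 0.0506 to 0.144), and the call also ended with no filter on low counts (adjusted p = 0.06). Fzd7 was higher in Neu-NT than in PyMT sections (log2 fold change 1.47 ± 0.42 SE, adjusted p = 0.0378). Leaving out WT replicate 3, PyMT section replicate 2 or 3, day 0 replicate 2, undated replicate 1 or Neu-NT replicate 1 or 2 took Fzd7 over the threshold (adjusted p = 0.05 to 0.134) and the same held for no filter on low counts and only the libraries compared (adjusted p = 0.0666 to 0.109).

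Fzd8 was lower than in any WT library in each of the 17 tumor libraries. WT organoids had 10.2, 12.1 and 12.4 CPM and PyMT sections 6.49, 3.87 and 4.12 (log2 fold change -1.26 ± 0.27 SE, adjusted p = 0.0129). Day 6 organoids had 6.94, 6.42 and 4.27, undated 8.32 and 7.07, Neu-NDL 7.49, 5.43 and 6.09 and Neu-NT sections 8.77, 9.19 and 7.14, where its adjusted p against WT was 0.0761 (6 day PyMT organoids), 0.0754 and 0.24. For Fzd8 the test no longer passed without WT replicate 3 or PyMT section replicate 3 (adjusted p = 0.0502 to 0.0505). 

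Fzd3, a receptor known from planar polarity, fell in culture and in Neu-NT sections. Day 0 PyMT organoids had 18.1, 18.9 and 14.6 CPM, day 6 9.06, 9.15 and 12.8 and undated 5.17 and 4.97, without overlap (log2 fold change -1.25 ± 0.21 SE, adjusted p = 0.00527). The Fzd3 call ended with only the libraries compared, the day 6 libraries alone and the day 6 libraries alone under a replicate block (adjusted p = 0.0645 to 0.486). Neu-NT sections had 6.62, 5.72 and 8.39, PyMT sections 18.2, 13.2 and 13.3 and WT organoids 13.7, 13.3 and 9.31. Fzd3 was lower in Neu-NT than in PyMT sections (log2 fold change -1.11 ± 0.24 SE, adjusted p = 0.0113) and than in WT organoids (log2 fold change -0.81 ± 0.24 SE, adjusted p = 0.0282). Leaving out PyMT section replicate 1 or Neu-NT replicate 2 took Fzd3 over the threshold (adjusted p = 0.052 to 0.057) and the same held for only the libraries compared (adjusted p = 0.0887). The Fzd3 call ended when WT replicate 1 or 2 or Neu-NT replicate 1 or 2 was left out (adjusted p = 0.0787 to 0.102), and the call also ended with only the libraries compared (adjusted p = 0.0904).

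Fzd4, the receptor of Norrin as well as of Wnts, was lower in Neu-NT sections (4.95, 5.99 and 2.43 CPM) than in PyMT sections (12.1, 6.53 and 17.7), with the groups close but not overlapping (log2 fold change -1.44 ± 0.41 SE, adjusted p = 0.0363). For Fzd4 the test no longer passed without WT replicate 1, PyMT section replicate 1 or 3 or any Neu-NT replicate (adjusted p = 0.0513 to 0.148) and did not pass with no filter on low counts, a replicate block, only the libraries compared and the pair of libraries that stood apart left out (adjusted p = 0.0548 to 0.171). Endothelial cells are known to express Fzd4. The sum of 8 endothelial markers was 106 to 182 CPM in Neu-NT and 134 to 213 in PyMT sections, with 0 markers absent, and its part in the difference was not tested.

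Fzd9, a receptor without a call in 8 comparisons, stood at 45.4, 43.4 and 56.6 CPM in WT organoids, 8.28, 14.1 and 5.11 in PyMT sections, 136, 13.9 and 5.82 at day 6 and 61.9, 53.2 and 1.4 in Neu-NT sections. Neu-NDL organoids, the group with the highest mean, had 75.5, 148 and 76.5, undated organoids 95.5 and 64.9 and day 0 organoids 23.8, 6.22 and 10.0449. Both libraries that stood apart were the lowest of their groups. Without them Fzd9 was lower in PyMT sections than in WT organoids (-2.41, adjusted p = 0.0173), higher in 6 day than day 0 PyMT organoids (2.56, adjusted p = 0.00959) and higher in Neu-NT than in PyMT sections (2.66, adjusted p = 0.0162), values chosen after they were seen.

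**Figure D2:**
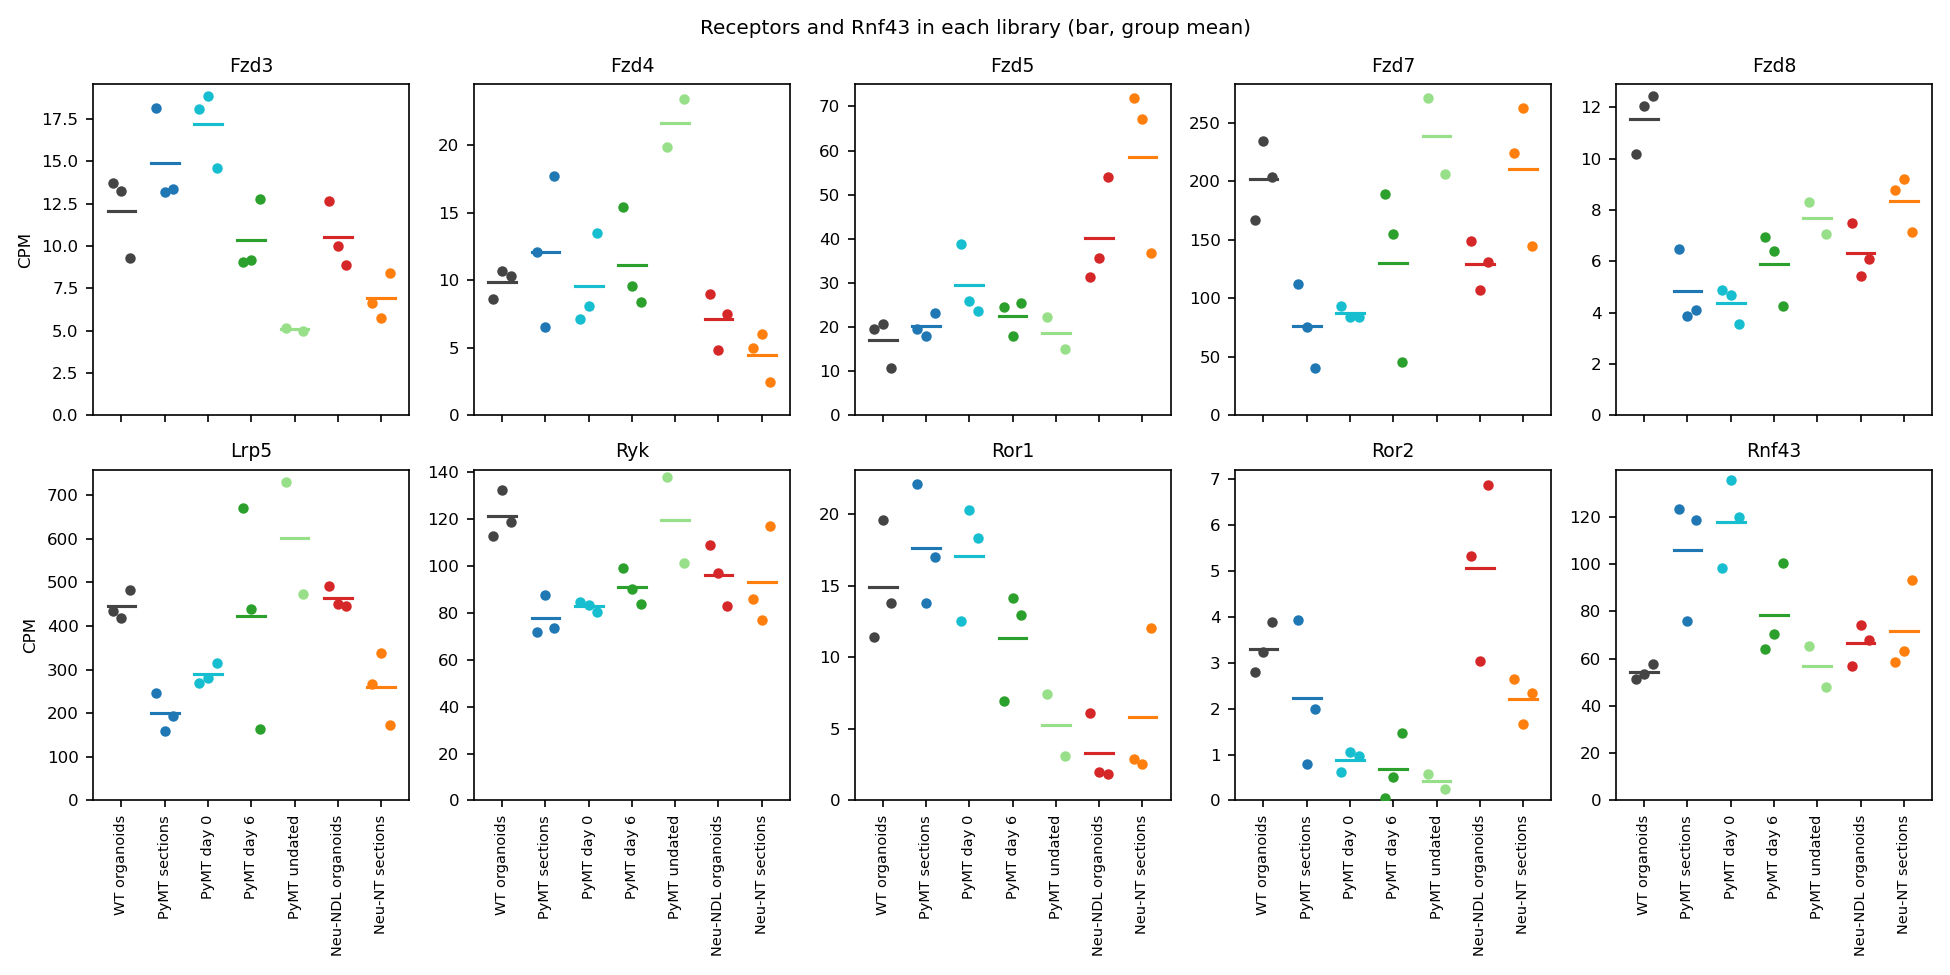
CPM (linear axis from 0) of 9 receptors and Rnf43 in each library, 1 point per library, with a bar at the group mean. Fzd5 is highest in the Neu-NT and Neu-NDL points, Fzd8 is highest in the 3 WT points, and Ror2 is highest in Neu-NDL organoids.

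Lrp5, the co-receptor that Wnts use beside Frizzled, was among the highest members per length (45.7 ± 3.45 CPM per kilobase in WT organoids). It was lower in PyMT sections (246, 159.6 and 194 CPM) than in WT organoids (434, 419 and 483), by more than the spread of either (log2 fold change -1.16 ± 0.36 SE, adjusted p = 0.0483). The Lrp5 call ended when any WT replicate, any PyMT section replicate, any day 0 replicate, day 6 replicate 2, either undated replicate, any Neu-NDL replicate or Neu-NT replicate 1 was left out (adjusted p = 0.0515 to 0.133), and the call also ended with no filter on low counts and RLE size factors (adjusted p = 0.0541 to 0.0603). The related Lrp6 was not called in any of the 8 comparisons, and its levels ran from 103 to 255 CPM over the 20 libraries.

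Among the receptors of the beta-catenin independent branch, Ror2 separated the organoids of the tumor models. WT organoids had 2.79, 3.22 and 3.87 CPM, day 6 PyMT 0.0543, 0.512 and 1.47, undated 0.57 and 0.258 and Neu-NDL 5.31, 3.04 and 6.86. All 5 PyMT libraries were below WT, and 2 of 3 Neu-NDL libraries were above it. Ror2 fell in 6 day PyMT organoids (log2 fold change -2.61 ± 0.63 SE, adjusted p = 0.034) and was higher in Neu-NDL than in 6 day PyMT organoids (log2 fold change 3.23 ± 0.64 SE, adjusted p = 0.0123). Neu-NDL against WT gave log2 fold change 0.62 ± 0.69 SE, adjusted p = 0.662. Leaving out any WT replicate, day 6 replicate 2 or either undated replicate took Ror2 over the threshold (adjusted p = 0.0506 to 0.114) and the same held for only the libraries compared, the day 6 libraries alone and the undated libraries alone (adjusted p = 0.095 to 0.134). For the difference between tumor models, the Ror2 call ended when either undated replicate was left out (adjusted p = 0.0555 to 0.0635), and the call also ended with only the libraries compared and the day 6 libraries alone (adjusted p = 0.0725 to 0.136).

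Ror1 fell in Neu-NDL organoids, from 11.4, 19.6 and 13.8 CPM in WT to 6.1, 2 and 1.85 (log2 fold change -2.17 ± 0.60 SE, adjusted p = 0.0499). For Ror1 the test no longer passed without any WT replicate, any PyMT section replicate, any day 0 replicate, undated replicate 2 or Neu-NDL replicate 2 or 3 (adjusted p = 0.0531 to 0.188) and did not pass with no filter on low counts, RLE size factors and a replicate block (adjusted p = 0.0507 to 0.0612). Neu-NDL replicate 1, with its high fibroblast, endothelial and skeletal muscle markers, was again the highest of its group. The part of these cell types in the Ror1 values was not tested. Ryk, a receptor-like protein that binds Wnts, fell in PyMT sections from 113, 132 and 119 CPM to 71.7, 87.7 and 73.4, the smallest called change among the members (log2 fold change -0.64 ± 0.17 SE, adjusted p = 0.0252). The Ryk call ended when any WT replicate or PyMT section replicate 1 or 3 was left out (adjusted p = 0.0514 to 0.0923).

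Lgr5, the R-spondin receptor known as a stem cell marker and Wnt target, was far lower in the tumors. WT organoids had 30.9, 47.2 and 31.1 CPM. Day 6 organoids had 0.488, 0.342 and 7.8, undated 1.04 and 0.626, Neu-NDL 1.31, 1.1 and 0.144 and Neu-NT sections 0.302, 0.18 and 2.17. PyMT sections had 12.3, 2.61 and 7.76 and day 0 organoids 1.87, 1.62 and 4.93. Each of the 17 tumor libraries was below the lowest WT library, and among the tumor organoids day 6 replicate 3 was the highest. Lgr5 fell against WT in Neu-NT sections (log2 fold change -5.38 ± 1.27 SE, adjusted p = 0.00935), a call that held under all alternatives and omissions tried. It also fell in Neu-NDL organoids (log2 fold change -5.41 ± 1.26 SE, adjusted p = 0.0257) and 6 day PyMT organoids (log2 fold change -4.55 ± 1.02 SE, adjusted p = 0.0243). The Lgr5 call ended when any WT replicate or Neu-NDL replicate 2 or 3 was left out (adjusted p = 0.0621 to 0.0951). In the PyMT comparison, leaving out any WT replicate or either undated replicate took Lgr5 over the threshold (adjusted p = 0.0561 to 0.133) and the same held for the day 6 libraries alone and the undated libraries alone (adjusted p = 0.0871 to 0.111). PyMT sections gave log2 fold change -2.26 ± 1.08 SE, adjusted p = 0.172. Lgr5 (ENSMUSG00000020140.12, chr10:115450311-115587780, mm10) is known from basal and luminal mammary cells. Of the 10 basal markers, 6 were called lower in Neu-NT sections, 5 in Neu-NDL organoids, 5 in PyMT sections and 6 in 6 day PyMT organoids, against the backgrounds of 19%, 4.52%, 12.5% and 3.89% given above. None was called higher, 3 had positive fold changes in 6 day PyMT organoids and 1 in Neu-NT sections, none of the 10 was at 0 in any library, and their part in the Lgr5 and Wif1 results was not tested.

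Lgr6, a close relative of Lgr5, fell in Neu-NT sections, with 13.3, 30.5 and 13.7 CPM against 157, 153 and 120.3 in WT (log2 fold change -2.90 ± 0.82 SE, adjusted p = 0.0221). Leaving out WT replicate 1 or 2 or Neu-NT replicate 1 or 3 took Lgr6 over the threshold (adjusted p = 0.0537 to 0.0863) and the same held for no filter on low counts (adjusted p = 0.0535). In PyMT sections it was 100.2, 104 and 23.1 CPM and in Neu-NDL organoids 175, 34.6 and 24.3, where no PyMT section library reached the WT range and 1 Neu-NDL library exceeded it. Lgr4 ranged from 31.8 to 128 CPM and was never called. Rspo1, the only R-spondin called, was low everywhere. It fell in Neu-NT sections, with 0.189, 0.0451 and 0.155 CPM against 1.83, 0.406 and 0.369 in WT (log2 fold change -2.69 ± 0.86 SE, adjusted p = 0.0397), or 9 against 102 counts, a ratio of 6.52 (95% interval for counting error 3.3 to 14.7). For Rspo1 the test no longer passed without WT replicate 1 or any Neu-NT replicate (adjusted p = 0.0657 to 0.233) and did not pass with only the libraries compared and the pair of libraries that stood apart left out (adjusted p = 0.0514 to 0.0832). WT replicate 1 was far above the other WT libraries. Rspo3 was above 1 CPM in 5 libraries from 4 groups and had no call.

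Of the 7 transcription factors and feedback targets, Lef1, Tcf7 and Rnf43 were called in at least 1 comparison, and single libraries stood far from their replicates for the others. Axin2, the feedback target read most often as a sign of beta-catenin signaling, was 0.645, 0.747 and 0.553 CPM in WT organoids and 2.43, 1.11 and 1.31 in PyMT sections. Day 0 organoids had 1.92, 22.4 and 1.38, day 6 0.868, 79.8 and 1.32, undated 0.57 and 0.111, Neu-NDL 1.13, 0.534 and 0.241 and Neu-NT sections 4.12, 2.57 and 33.5. Replicate 2 was far above its partners both at day 0 and at day 6, and replicate 3 was so in Neu-NT sections. The spread within these groups left Axin2 without a call, the nearest being Neu-NT sections against WT (log2 fold change 4.36 ± 1.59 SE, adjusted p = 0.0667). Without the pair of libraries that stood apart, which includes the Neu-NT library at 33.5 CPM, that difference was 2.36 (edgeR adjusted p = 0.2). In that fit 29% of all genes were called, and this value was chosen after it was seen. Axin2 lies at chr11:108920349-108950783 (mm10).

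The same replicate 2 libraries were high for other feedback genes. Nkd1, an inhibitor of Dishevelled, was 1.77, 11 and 1.6 CPM at day 0 and 0.814, 21.7 and 0.815 at day 6, against 4.67, 4.06 and 4.86 in WT organoids. Znrf3, which removes Frizzled from the surface, was 15.1, 54.4 and 18.6 and 12.5, 46.8 and 19.3 at these times, against 10.4, 12.6 and 7.53 in WT. Replicate 2 was the highest of its group for both genes at both times. Notum, a secreted enzyme that inactivates Wnts, reached 3.18 CPM in day 6 replicate 2 and stayed at or under 0.756 in all other libraries. These genes were singled out after their values were seen, none was called in any of the 8 comparisons, and the values of the libraries are given as a description.

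Among basal keratins, Krt14 and Krt5 had their highest values of the 20 libraries in day 6 replicate 2, at 4423 and 1834 CPM, where day 6 replicates 1 and 3 had Krt14 at 758 and 19.2. Krt17 was 1003 CPM there and 1045 in Neu-NT replicate 3. Over all 10 basal markers the mean log2 CPM of day 6 replicate 2 was 4.95, against 4.83 and 2.88 in replicates 1 and 3 and 7.33 to 7.60 in WT organoids. Day 0 replicate 2, with a like rise in Axin2, Nkd1 and Znrf3, had Krt14 at 167 CPM against 60.3 and 111 in its group. In Neu-NT replicate 3 Krt14 was 1453 CPM, against 0.907 and 3.2, while Nkd1 was 5.29, 3.33 and 4.19 CPM in the 3 Neu-NT libraries. The part of basal cells in these target levels was not tested. Sp5, another direct target, was at 1.16 CPM in day 6 replicate 2 and at or under 0.207 elsewhere.

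**Figure D3:**
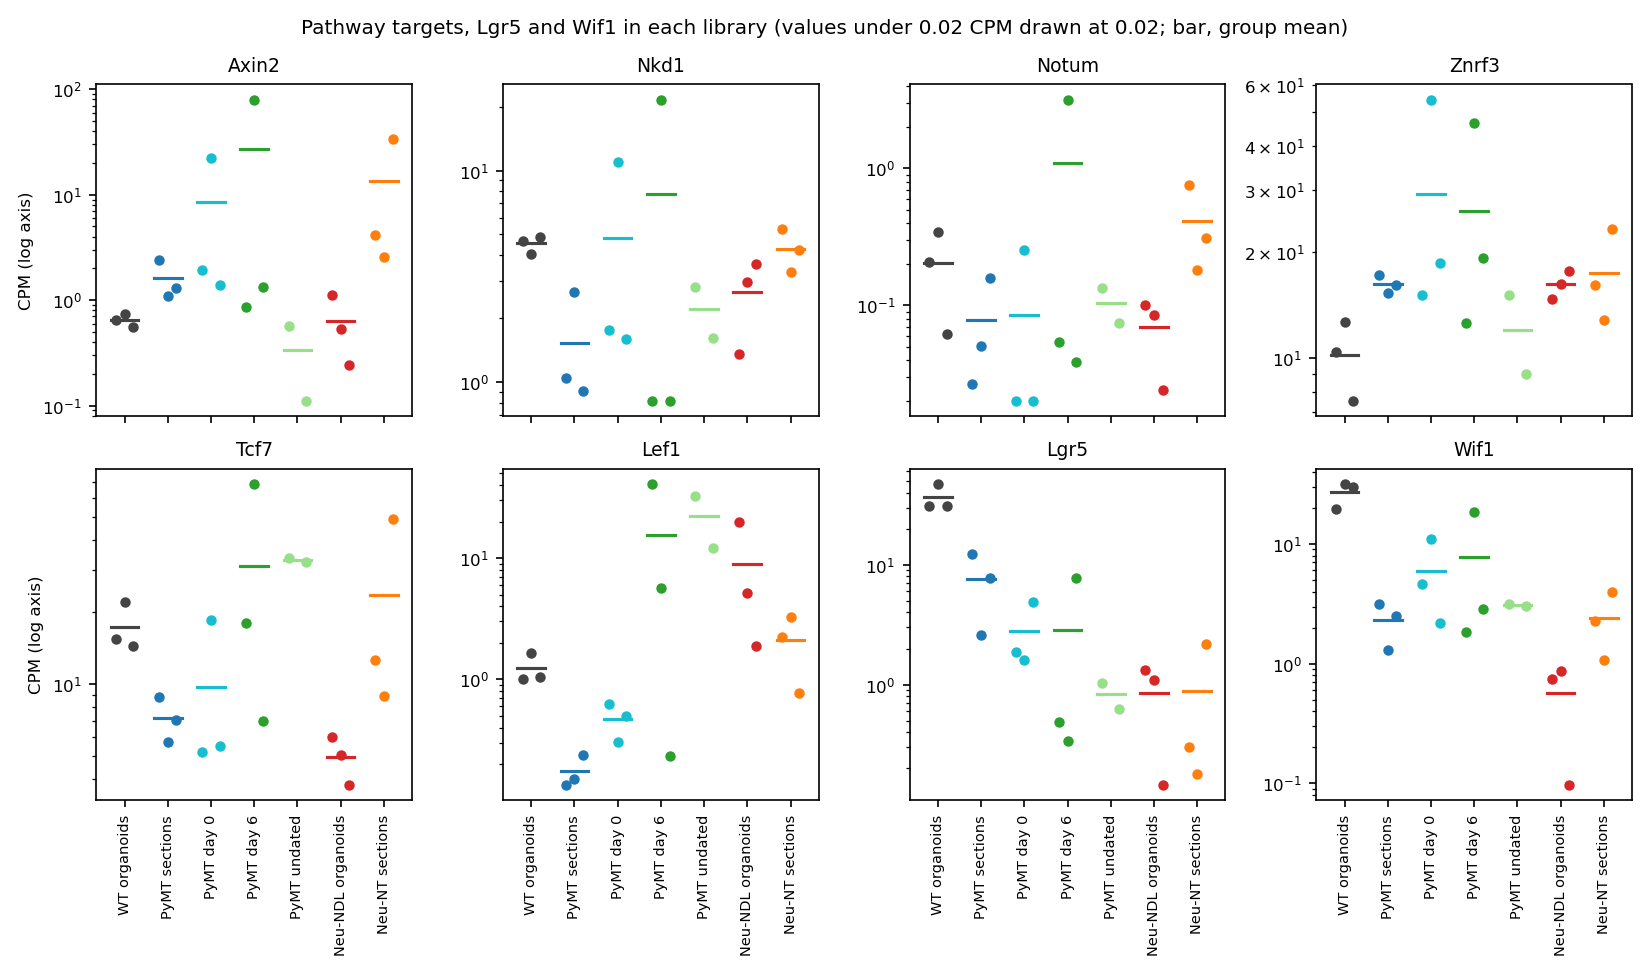
CPM (log axis) of 6 targets and factors, Lgr5 and Wif1, 1 point per library, with a bar at the group mean and values under 0.02 CPM drawn at 0.02. Axin2, Nkd1 and Znrf3 each have 1 high point at day 0 and 1 at day 6, and Lgr5 and Wif1 have their 3 highest points in WT organoids.

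Lef1, a transcription factor that carries beta-catenin and is itself a target, rose in culture in PyMT organoids. Day 0 organoids had 0.624, 0.303 and 0.497 CPM, day 6 40.9, 5.63 and 0.233 and undated 32.2 and 12. Of these 5 libraries 4 were well above day 0, and day 6 replicate 3 was below it. Lef1 rose against day 0 (log2 fold change 5.27 ± 1.27 SE, adjusted p = 0.0233). The Lef1 call ended when any day 0 replicate or undated replicate 1 was left out (adjusted p = 0.064 to 0.104), and the call also ended with only the libraries compared, the day 6 libraries alone and the day 6 libraries alone under a replicate block (adjusted p = 0.0946 to 0.525). WT organoids had 1.01, 1.64 and 1.05 and Neu-NDL 19.7, 5.2 and 1.88, and PyMT sections had 0.133, 0.151 and 0.238. Against WT, 6 day PyMT organoids gave log2 fold change 3.90 ± 1.15 SE, adjusted p = 0.069. Without the pair of libraries that stood apart that difference was 4.22, edgeR adjusted p = 0.00511, where 16.5% of all genes were called. The day 6 library left out was the one at 0.233 CPM, and this value was chosen after it was seen.

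Tcf7, the partner factor, was lower in Neu-NDL organoids (6, 5.06 and 3.78 CPM) than in 6 day PyMT organoids (18, 68.7 and 7.03 at day 6 and 33.6 and 32.5 undated), without overlap (log2 fold change -2.70 ± 0.72 SE, adjusted p = 0.0369). WT organoids, with 15.5, 22 and 14.4, were above Neu-NDL and within the PyMT range. Of the 3 libraries highest in Axin2, day 6 replicate 2 and Neu-NT replicate 3 had the highest Tcf7, at 68.7 and 49.2 CPM, while day 0 replicate 2 had 18.5, below both undated libraries and 1 WT library. Leaving out day 6 replicate 2, either undated replicate or any Neu-NDL replicate took Tcf7 over the threshold (adjusted p = 0.0567 to 0.132) and the same held for no filter on low counts, a replicate block, only the libraries compared, the day 6 libraries alone and the undated libraries alone (adjusted p = 0.0539 to 0.145).

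Rnf43, the partner ligase of Znrf3, was raised in PyMT tissue before culture. WT organoids had 51.6, 53.6 and 57.9 CPM, PyMT sections 123, 76.1 and 119 and day 0 organoids 98.1, 136 and 119.8. Day 6 organoids had 64.2, 70.6 and 101 and undated 65.3 and 48.1, lower than day 0 in all but day 6 replicate 3. Rnf43 rose in PyMT sections against WT (log2 fold change 0.96 ± 0.23 SE, adjusted p = 0.0186) and fell from day 0 to 6 days (log2 fold change -0.82 ± 0.20 SE, adjusted p = 0.0264). The Rnf43 call ended when any WT replicate or PyMT section replicate 1 or 3 was left out (adjusted p = 0.0588 to 0.0703). For the fall in culture, leaving out day 0 replicate 2 or 3, day 6 replicate 1 or undated replicate 2 took Rnf43 over the threshold (adjusted p = 0.0538 to 0.111) and the same held for only the libraries compared, the day 6 libraries alone and the day 6 libraries alone under a replicate block (adjusted p = 0.107 to 0.465). Procr, a surface protein of mammary stem cells, was 1.6, 3.44 and 3.93 CPM in WT organoids and between 1.35 and 7.67 over all libraries, with no call in 8 comparisons.

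Because Lef1 and the feedback targets are read as responses to Tcf and Lef factors, the 250 bases before the RefSeq start sites (GRCm38.p6) were searched for CTTTGAA or CTTTGAT, and for CTTTGTA or CTTTGTT, core forms of the Tcf and Lef site, on both strands. Start windows were found for 33 of the 50 members (41 windows). At least 1 form was present in 4 windows, or 9.76%, against 14.8% of all 32851 windows. Those 4 belong to Fzd7, Lef1, Wnt5b and Wnt11. Of the 4 Lef1 windows only that of the most downstream start, inside the gene, held a form, and both windows nearest the 5′ end of the gene held none. The Nkd1 window also lies inside the gene as GENCODE draws it (chr8:88521354-88594884). The called members Fzd7 and Lef1 are printed with the match in capitals (read from the other strand), and Axin2 and Nkd1 are printed as targets with high levels in the replicate 2 libraries.
Fzd7, chr1:59481897-59482146, plus strand: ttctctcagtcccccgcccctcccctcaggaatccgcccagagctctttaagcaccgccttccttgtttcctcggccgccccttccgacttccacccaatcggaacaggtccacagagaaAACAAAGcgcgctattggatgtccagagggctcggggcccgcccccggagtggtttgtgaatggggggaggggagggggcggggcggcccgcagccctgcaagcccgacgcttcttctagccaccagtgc
Lef1, chr3:131156044-131156293, plus strand: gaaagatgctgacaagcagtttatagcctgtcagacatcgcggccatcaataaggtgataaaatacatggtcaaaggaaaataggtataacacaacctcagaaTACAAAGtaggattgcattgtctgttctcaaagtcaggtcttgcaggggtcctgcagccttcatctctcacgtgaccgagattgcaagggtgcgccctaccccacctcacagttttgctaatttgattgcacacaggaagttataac
Axin2, chr11:108920099-108920348, plus strand: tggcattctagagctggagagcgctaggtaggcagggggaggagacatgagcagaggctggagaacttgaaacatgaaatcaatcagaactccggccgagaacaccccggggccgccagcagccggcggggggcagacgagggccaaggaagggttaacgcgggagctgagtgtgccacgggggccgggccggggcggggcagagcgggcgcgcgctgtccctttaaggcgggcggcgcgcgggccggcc
Nkd1, chr8:88527383-88527632, plus strand: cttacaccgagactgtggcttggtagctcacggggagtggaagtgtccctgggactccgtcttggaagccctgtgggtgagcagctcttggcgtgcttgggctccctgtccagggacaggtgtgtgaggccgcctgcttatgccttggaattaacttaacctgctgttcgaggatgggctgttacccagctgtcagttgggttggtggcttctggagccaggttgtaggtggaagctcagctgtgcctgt
No GENCODE exon lies in these 4 windows. The windows of Axin2 and Nkd1 hold none of the 4 forms, which says only that these letters are not in the 250 bases shown. The Axin2 window holds 24 CpG and the Nkd1 window 6.

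Wif1, which binds Wnts outside the cell, was the only secreted inhibitor called. WT organoids had 19.7, 31.7 and 29.9 CPM and Neu-NDL organoids 0.747, 0.872 and 0.0962. PyMT sections had 3.12, 1.31 and 2.5 and Neu-NT sections 2.27, 1.08 and 3.93. Day 0 organoids had 4.63, 11.1 and 2.17, day 6 1.84, 18.5 and 2.87 and undated 3.12 and 3.02, where the high libraries were again replicate 2 of day 0 and day 6. No tumor library reached the lowest WT library. Wif1 fell in Neu-NDL organoids (log2 fold change -5.56 ± 1.00 SE, adjusted p = 0.00944), a call that held under all alternatives and omissions tried. It also fell in PyMT sections (log2 fold change -3.55 ± 0.90 SE, adjusted p = 0.0227) and Neu-NT sections (log2 fold change -3.48 ± 0.90 SE, adjusted p = 0.0146), and 6 day PyMT organoids gave log2 fold change -2.47 ± 0.73 SE, adjusted p = 0.0693. The Wif1 call ended when WT replicate 2 or 3 or any PyMT section replicate was left out (adjusted p = 0.0624 to 0.0727). In Neu-NT sections, leaving out Neu-NT replicate 1 or 2 took Wif1 over the threshold (adjusted p = 0.0543 to 0.0554). Neu-NDL organoids were also below 6 day PyMT organoids (log2 fold change -3.09 ± 0.86 SE, adjusted p = 0.0423). For Wif1 the test no longer passed without any WT replicate, PyMT section replicate 1 or 3, day 0 replicate 1, day 6 replicate 2, either undated replicate, any Neu-NDL replicate or Neu-NT replicate 1 (adjusted p = 0.0508 to 0.138) and did not pass with no filter on low counts, a replicate block, only the libraries compared, the day 6 libraries alone and the undated libraries alone (adjusted p = 0.0528 to 0.195).

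Sfrp1, a Frizzled-related protein that binds Wnts, was the highest member per length in WT organoids (47.3 ± 11.8 CPM per kilobase), level with Lrp5 and Fzd7 within the spread. PyMT sections had 42.7, 49.5 and 37.1 CPM against 194, 264 and 163 in WT organoids, with no overlap, and the test gave log2 fold change -2.26 ± 0.72 SE, adjusted p = 0.0515. Neu-NT sections had 289, 281 and 48 and day 6 organoids 269, 54.9 and 38.6. Without the pair of libraries that stood apart, Sfrp1 was lower in PyMT sections than in WT (-2.27, edgeR adjusted p = 0.00763) and higher in Neu-NT than in PyMT sections (2.74, edgeR adjusted p = 0.00444). The Neu-NT library left out was the one at 48 CPM, and these values were chosen after they were seen. Of all genes, 27% and 23.2% were called in those comparisons.

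Dkk3, a divergent member of the Dickkopf family, was 38.9, 39.8 and 46 CPM in WT organoids and lower in each of the 17 tumor libraries, from 2.02 to 28.2. It had no call, with log2 fold change -2.87 ± 0.80 SE, adjusted p = 0.0531 in Neu-NDL organoids. Wnt6, Fzd8, Lgr5, Wif1 and Dkk3 were thus the 5 of 47 tested members whose 3 WT libraries all lay above the other 17, an arrangement found in 2.44% of all genes tested. No member (0 of 47) had its WT libraries below all others, against 1.36% of all genes, and this arrangement was looked for after the values were seen.

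Wnt2, Sfrp2, Sfrp4 and Dkk2, members known from fibroblasts, were all highest among the 6 day PyMT libraries in day 6 replicate 3. That library had high fibroblast, endothelial, myeloid, adipocyte and lymphocyte markers. Sfrp2 was 0.217, 0.41 and 11.2 CPM at day 6 and 0.302 and 0.847 in undated organoids, and only replicate 3 of day 6 was high. Sfrp4 was 0 in 4 of these 5 libraries and 4.04 CPM in day 6 replicate 3, and Wnt2 was 0 in the same 4 and 1.55 there. PyMT sections, with fibroblast marker sums of 2013 to 6041 CPM, had Sfrp2 at 16.7, 9.2 and 11.9 and Dkk2 at 2.24, 2.56 and 3.33. In Neu-NDL organoids replicate 1, high in fibroblast, endothelial and skeletal muscle markers, had the highest Wnt2 (5.83, 0.112 and 0.505) and Dkk2 (6.62, 2.7 and 0.192). Its Sfrp4 was 0.0404 CPM. None of these 4 genes was called in any of the 8 comparisons, and the part of fibroblasts or other cell types in their levels was not tested.

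**Figure D4:**
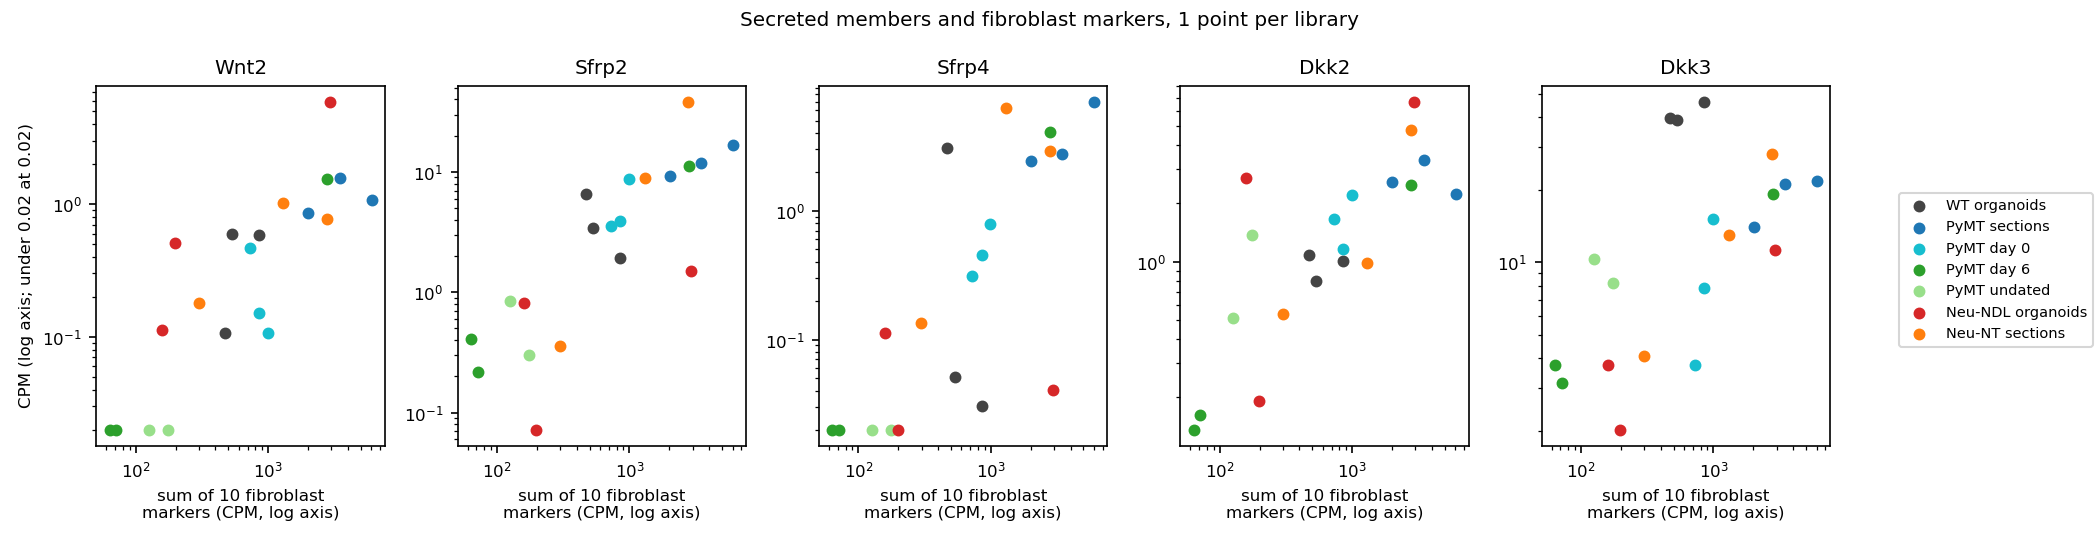
CPM of Wnt2, Sfrp2, Sfrp4, Dkk2 and Dkk3 (y, log axis, values under 0.02 drawn at 0.02) against the summed CPM of 10 fibroblast markers (x, log axis), 1 point per library, colored by group. Wnt2 and Sfrp4 are at 0 in 4 of the 5 PyMT libraries cultured for 6 days, and the 3 WT points of Dkk3 lie above all others.

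**Figure D5:**
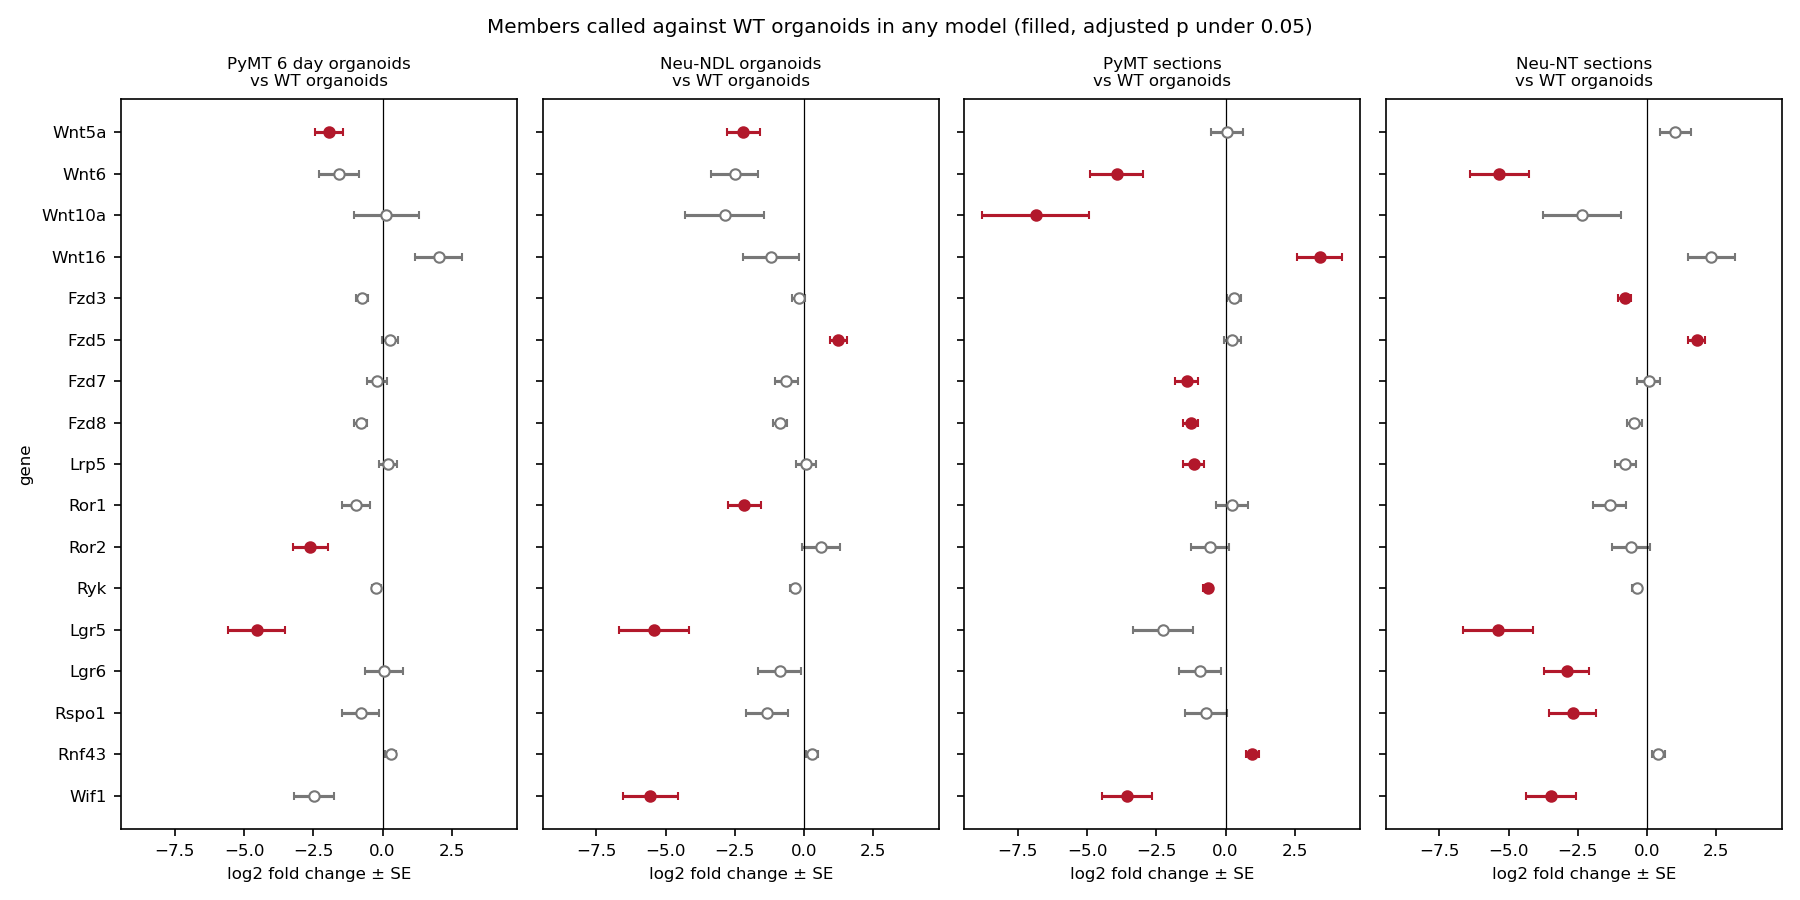
Log2 fold change against WT organoids (x; bars, SE) of the 17 members called in at least 1 of the 4 comparisons, 1 panel per tumor group, filled where the adjusted p was under 0.05. Lgr5 and Wif1 are each filled on the negative side in 3 of 4 panels, and Fzd5 is filled on the positive side in both Neu panels.

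The 49 other genes of the pathway, from beta-catenin to the planar polarity proteins, gave 48 tested. Against WT, 1 was called in 6 day PyMT organoids (2.08%, background 3.89%), 1 in Neu-NDL organoids (2.08%, background 4.52%), 6 in PyMT sections (12.5%, background 12.5%) and 9 in Neu-NT sections (18.8%, background 19%). These shares were near or below the background. Tnfrsf19, a receptor of the TNF family raised by Wnt signaling, rose in PyMT sections (log2 fold change 6.78 ± 1.09 SE, adjusted p = 0.00448), Neu-NT sections (log2 fold change 7.91 ± 1.14 SE, adjusted p = 0.000526) and Neu-NDL organoids (log2 fold change 4.57 ± 1.01 SE, adjusted p = 0.0211). Its level was 0.258, 0.406 and 0.4 CPM in WT organoids and 125, 73.8 and 60.2 in Neu-NT sections. PyMT sections had 19.6, 27.4 and 71.5 and Neu-NDL organoids 2.4, 14.9 and 8.28. Day 0 PyMT organoids had 44.3, 63.8 and 34.4, day 6 1.57, 38.1 and 66.3 and undated 0.134 and 0.184, so the 3 day 6 libraries were above WT and the undated libraries below it.

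Porcn, the enzyme that attaches the lipid to Wnts, fell in PyMT sections (log2 fold change -1.78 ± 0.43 SE, adjusted p = 0.0189) and Neu-NT sections (log2 fold change -1.77 ± 0.43 SE, adjusted p = 0.0109) and rose in 6 day against day 0 PyMT organoids (log2 fold change 1.54 ± 0.40 SE, adjusted p = 0.0307). Pygo1, a beta-catenin cofactor, fell in 6 day PyMT organoids (log2 fold change -2.40 ± 0.53 SE, adjusted p = 0.0221) and in PyMT sections (log2 fold change -2.63 ± 0.62 SE, adjusted p = 0.0173). Also called in PyMT sections were Tle4 (1.10 ± 0.33), Tle1 (-1.09 ± 0.20) and Vangl1 (-0.82 ± 0.25), the Tle proteins being co-repressors of Tcf factors and Vangl1 a planar polarity protein. In Neu-NT sections Tcf7l1, a mostly repressive Tcf factor, rose (log2 fold change 1.31 ± 0.26 SE, adjusted p = 0.00383). The largest falls there after Porcn were Celsr2 (-1.21 ± 0.26), Ctnnbip1 (-1.06 ± 0.33) and Tle1 (-0.83 ± 0.20).

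In 6 day against day 0 PyMT organoids 6 of 48 were called (12.5%, background 8.22%). Ccnd1, the cyclin D1 gene, rose (log2 fold change 1.67 ± 0.48 SE, adjusted p = 0.0455), as did Tcf7l1 (0.98 ± 0.24) and Vangl1 (0.94 ± 0.23), and Tnfrsf19 was lower (log2 fold change -4.31 ± 0.86 SE, adjusted p = 0.0107), with low values in day 6 replicate 1 and both undated libraries and values within or above the day 0 range in day 6 replicates 2 and 3. Pygo2 changed least among those called (0.42 ± 0.11). In the paired fit on day 6 and day 0 libraries, chosen after the data were seen, 0 of 48 were called by edgeR (5 at an unadjusted p under 0.05), and the 6 had adjusted p from 0.47 to 0.714. Neu-NT against PyMT sections gave 6 of 48 (12.5%, background 9.7%). Nkd2, a relative of Nkd1, was higher in Neu-NT (log2 fold change 3.68 ± 0.99 SE, adjusted p = 0.0287), with 55.3, 78.3 and 345 CPM against 19.8, 10.5 and 6.93. Apc2 (3.07 ± 0.81), Pygo1 (2.22 ± 0.62) and Tcf7l1 (1.99 ± 0.27) were also higher and Celsr2 lower (-1.55 ± 0.27). Neu-NDL against 6 day PyMT organoids gave 3 of 48 (6.25%, background 7.12%), with Pygo1 (2.70 ± 0.53) and Tle2 (1.24 ± 0.33) higher and Prickle3 lower (-0.87 ± 0.25), and day 0 organoids against sections gave 0 of 48 with edgeR, 0 of them at an unadjusted p under 0.05.

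The labels do not state that day 6 and day 0 PyMT libraries are paired, but those of the same number deviated together over genes. That comparison was therefore also fitted on those 6 libraries with the replicate as a block. The paired fit by edgeR called 0 of the 39 members it could test and 0% of all genes, with 5 members at an unadjusted p under 0.05. In that fit Fzd3, Lef1 and Rnf43 had adjusted p of 0.486, 0.525 and 0.465. The day 6 libraries without the block, fitted with all groups, gave 0 of 47 (0.626% of all genes), and the fit on the day 0, day 6 and undated libraries alone gave 0 of 46 (0.388% of all genes).

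Exons of 10 members share positions with a gene on the other strand in GENCODE (Wnt5a, Wnt7b, Wnt11, Fzd5, Fzd6, Rspo3, Axin2, Lef1, Sfrp2 and Notum). The strand setting of the counts is not given in the sources used here, so reads of those partners cannot be told apart from theirs.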

How the data were processed

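The authors deposited 1 table of raw read counts per gene for each library. Per the submitters' processing notes, CASAVA, FastQC, STAR, HTSeq and DESeq2 were used with the mm10 build; the annotation release, counting mode and strand setting are not given in the sources used here. Gene IDs were matched to GENCODE M21 (44671 of 45318). Members and lists were chosen with earlier results of these data known.

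All 20 libraries in 7 groups were fitted together with edgeR 4.0.16 (R 4.3.3): genes filtered with filterByExpr (18698 tested), TMM scaling, a quasi-likelihood F test with 13 residual degrees of freedom and a common dispersion of 0.193, and Benjamini-Hochberg adjustment over all genes tested. The 6 day PyMT mean weights day 6 and undated libraries equally. Each SE was obtained from the fold change on the log2 scale and the root of its F statistic. Levels are counts scaled to library size (CPM), with a prior count of 2 on the log2 scale. The test was also run on counts simulated from the fitted model. That simulation holds no outlying libraries and no mixed cell content, so it does not check the test against those features.

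Every called member is named, with Axin2, Lef1, Tcf7, Nkd1, Notum, Znrf3, Rnf43, Lgr5 and Procr always, and up to 4 called genes per direction from the other pathway genes. Alternatives were no filter, RLE factors, DESeq2 1.42.0, only the libraries compared, a replicate block, day 6 or undated libraries alone, leaving out each library, and leaving out the 2 that stood apart. Same-numbered day 6 and day 0 PyMT libraries deviated together (r over genes 0.287, 0.428 and 0.317), which is the only source of that pairing. In the other comparisons r of same-numbered libraries ran from -0.226 to 0.275, and no paired fit was made. Libraries of different numbers were not correlated for reference. Intervals of count ratios cover counting error only.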

Additional observations from a re-analysis of the deposited data

Results flagged for a closer look

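Among the 5 PyMT libraries cultured for 6 days, 5 of 47 tested members had 1 library far from the other 4 on the log2 scale (gap over range above the critical value of 0.71). Chance alone puts about 1 in 20 groups past it, and 13% of all 18698 genes tested were past it in these libraries, so the members' share was not above that of all genes. Wnt2 was 1.55 CPM in day 6 replicate 3 and 0 in the others. Sfrp4 was 4.04 CPM in the same library and 0 in the others. Wnt7b was lowest there, at 3.49 CPM, with the others at 20.6 to 37.4. Wif1 was highest in day 6 replicate 2, at 18.5 CPM, and so was Notum, at 3.18 CPM.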

How the results depend on the processing

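Counts of members called depended on the processing. Of 986 alternative values of the 37 calls, 720 stayed past the threshold, 266 did not and 0 changed sign. Most of these values came from refits without 1 of the same 20 libraries, for calls already past the threshold. A change of sign was therefore unlikely beforehand, and its absence says little about the directions. Only 4 calls held in every alternative and omission (Wif1 in Neu-NDL organoids; Wnt6, Fzd5 and Lgr5 in Neu-NT sections, all against WT), and 31 ended in at least 1 omission. The cause of these shifts was not tested. With 1 library left out, members called ranged from 0 to 9 in 6 day PyMT organoids against WT, 1 to 9 in Neu-NDL organoids, 0 to 12 in PyMT sections and 3 to 11 in Neu-NT sections. Between tumor groups they ranged from 1 to 12 for 6 day against day 0 PyMT organoids, 0 to 12 for Neu-NDL against PyMT organoids and 2 to 9 for Neu-NT against PyMT sections, and stayed at 0 for day 0 organoids against sections. The share of all genes called also moved with the library left out, as given above for day 6 replicate 3. These ranges are therefore not read as particular to the members.

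In each pair that follows, the share of all genes called in the same fit stands in parentheses. DESeq2 called 10 (8.83%) members in 6 day PyMT and 10 (10.1%) in Neu-NDL organoids against WT, 9 (14.3%) for 6 day against day 0, 9 (13.4%) for Neu-NDL against PyMT organoids and 11 (15.8%) for Neu-NT against PyMT sections. Without the filter 3 (1.93%) were called in Neu-NDL organoids against WT, 1 (2.61%) against PyMT organoids, and 3 (3.81%) for Neu-NT against PyMT sections. Only the libraries compared gave 11 (11.3%) in Neu-NDL organoids and 19 (28.8%) in PyMT sections against WT, 0 (0.388%) for 6 day against day 0, 0 (0.0641%) for Neu-NDL against PyMT organoids and 1 (2.05%) for Neu-NT against PyMT sections. Without both libraries that stood apart, 6 day PyMT and Neu-NDL organoids gave 12 (16.5%) and 12 (14.5%) against WT. PyMT and Neu-NT sections gave 14 (27%) and 11 (29%) against WT. The tumor comparisons gave 19 (30.7%) for 6 day against day 0, 13 (24.3%) for Neu-NDL against PyMT organoids and 12 (23.2%) for Neu-NT against PyMT sections. Day 6 libraries alone gave 1 (2.97%) against WT, 0 (0.626%) against day 0 and 1 (0.701%) for Neu-NDL against PyMT. Undated libraries alone gave 0 (0.471%) against WT and 2 (3.45%) for Neu-NDL against PyMT.

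A replicate block over all 20 libraries gave 3, 4, 10 and 7 members against WT and 3 for 6 day against day 0. It gave 0 for day 0 against sections, 2 for Neu-NDL against PyMT organoids and 4 for Neu-NT against PyMT sections. The share of all genes called in that fit is not given here, so these counts are not read as particular to the members. On the paired day 6 and day 0 libraries the block gave 0 members (0% of all genes). It also gave 0 of the 6 other pathway genes called without it, an alternative chosen after seeing the data. Members with few counts, such as Wnt10a, Wnt16 and Rspo1, are limited by depth.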
